A study of Homo sapiens with 8 samples.

Results

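IER5, IER5L, MXD1, ENGASE and DMRT1, 5 genes that encode no chaperone, were followed across 8 arrays of A375 melanoma cells. They were chosen because they, or in the case of the IER5 and IER5L pair a paralog, had higher signals with the HSP90 inhibitor NVP-HSP990 and lower signals when HSF1 was knocked down, so these differences are given as a description and not as a test. They are 5 of the 19775 genes that the array annotation names by a single symbol, with 9 probe sets between them, and all 5 passed the filter on dim genes, at or above the median of the array in at least 2 of 8 arrays, which kept 12672 genes.

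Total RNA was measured on HG-U133 Plus2 arrays, 2 per group, after 3 h of treatment. A375 is an established human melanoma cell line, and both lines used were stable pools that carried a hairpin whose expression is switched on by Doxycycline (Dox). The shNTC line carries a non-targeting hairpin and received 0.1% DMSO, in one group without Dox and in the other with it. The shHSF1 line (sh1999 in the titles) carries a hairpin against HSF1 and received 100 nM NVP-HSP990, again without and with Dox, at 100 ng/ml for 3 days. The culture text of the labels gives Dox for all lines, and the split into 4 groups rests on the titles, which mark 4 arrays as Dox and 4 as ctrl. Every NVP-HSP990 array came from the shHSF1 line and every DMSO array from the shNTC line, so that inhibitor and line cannot be told apart, and there was no knockdown without inhibitor. Nothing in the labels tells whether repeat arrays were separate cultures, and p-values therefore measure only the spread between these arrays, which may be technical.

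HSF1 is the transcription factor of the heat shock response. In unstressed cells it is held inactive by chaperones that include HSP90, and when HSP90 is inhibited or proteins misfold, HSF1 forms trimers, enters the nucleus and binds heat shock elements, which are arrays of the unit GAA in alternating directions. Its best known targets are chaperones, but it also activates genes outside protein folding. IER5 is an immediate early gene whose protein binds the B55 regulatory subunits of the phosphatase PP2A and promotes dephosphorylation of S6 kinase and of HSF1 itself, and IER5L is its paralog. MXD1 (MAD1) pairs with MAX and represses E-box genes through SIN3 and histone deacetylases, opposite to MYC. ENGASE is a cytosolic endoglycosidase that trims free N-glycans released from misfolded glycoproteins. DMRT1 is a DM domain transcription factor known for the development and maintenance of the testis.

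The upstream sequences of 3 of the 5 genes hold paired heat shock element units and are shown because those units are what HSF1 binds. Each line gives the 250 bases before a gene start annotated by RefSeq (GRCh38.p14), 5′ to 3′ on the strand of the gene, and capitals mark each match to GAANNTTC (a head-to-head pair) or TTCNNGAA (a tail-to-tail pair). Both motifs read the same on either strand. The windows are chr1:181088450-181088699 on the plus strand for IER5, chr9:129178262-129178511 on the minus strand for IER5L, and chr9:841447-841696 and chr9:843039-843288 on the plus strand for the 2 start sites of DMRT1.
IER5: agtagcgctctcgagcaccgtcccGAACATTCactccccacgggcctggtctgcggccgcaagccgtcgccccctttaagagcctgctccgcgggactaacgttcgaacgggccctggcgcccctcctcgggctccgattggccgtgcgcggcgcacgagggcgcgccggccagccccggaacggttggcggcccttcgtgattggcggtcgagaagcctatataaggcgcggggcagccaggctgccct
IER5L: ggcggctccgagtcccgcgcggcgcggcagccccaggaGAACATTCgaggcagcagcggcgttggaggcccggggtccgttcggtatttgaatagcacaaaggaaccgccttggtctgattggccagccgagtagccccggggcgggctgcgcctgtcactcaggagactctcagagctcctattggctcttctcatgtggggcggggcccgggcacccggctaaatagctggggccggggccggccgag
DMRT1, start 1: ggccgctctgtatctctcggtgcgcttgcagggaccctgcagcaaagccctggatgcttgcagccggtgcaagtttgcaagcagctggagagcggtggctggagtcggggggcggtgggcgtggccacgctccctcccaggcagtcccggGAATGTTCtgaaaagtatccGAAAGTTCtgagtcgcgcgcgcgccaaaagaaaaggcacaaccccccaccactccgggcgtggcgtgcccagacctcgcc
DMRT1, start 2: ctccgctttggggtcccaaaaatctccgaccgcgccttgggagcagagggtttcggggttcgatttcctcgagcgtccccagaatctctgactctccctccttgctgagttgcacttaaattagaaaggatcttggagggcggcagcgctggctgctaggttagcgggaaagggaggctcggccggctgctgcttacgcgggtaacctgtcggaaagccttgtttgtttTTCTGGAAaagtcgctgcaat

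IER5 and IER5L held the same 8 letters, GAACATTC, at positions -226 to -219 before the start of IER5 and at -212 to -205 before that of IER5L, where -1 is the last base before the start. At the first start of DMRT1, GAATGTTC stood at -100 to -93 and GAAAGTTC at -80 to -73. At its second start, TTCTGGAA stood at -21 to -14. The windows of MXD1 (chr2:69914859-69915108, plus strand) and ENGASE (chr17:79074574-79074823, plus strand) held neither motif, which says only that these letters were not in these 250 bases.

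Pairs of units are not rare. GAANNTTC was found in 5.78% of the 35116 upstream windows of the RefSeq table, TTCNNGAA in 6.62% and at least one of them in 11.6%. Counted by gene, 3 of the 5 genes had a pair, beside 3813 of 27305 genes (14.0%) in the whole table. Of the 15 HSF1 target chaperones with a window, 10 had a pair. These 15 are not quite the 15 tested on the arrays, since HSPA8 had a window but was not tested. A run of 3 alternating units (GAANNTTCNNGAA or TTCNNGAANNTTC, each of which contains both pairs) was found in 0.441% of windows, in 6 of the 15 chaperones and in none of the 5 genes. HSPA6, a stress-inducible HSP70 gene, had such a run, TTCGCGAAAGTTC at -74 to -62. These counts take exact matches only, describe letters in a window and were not tested.

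**Figure D1:**
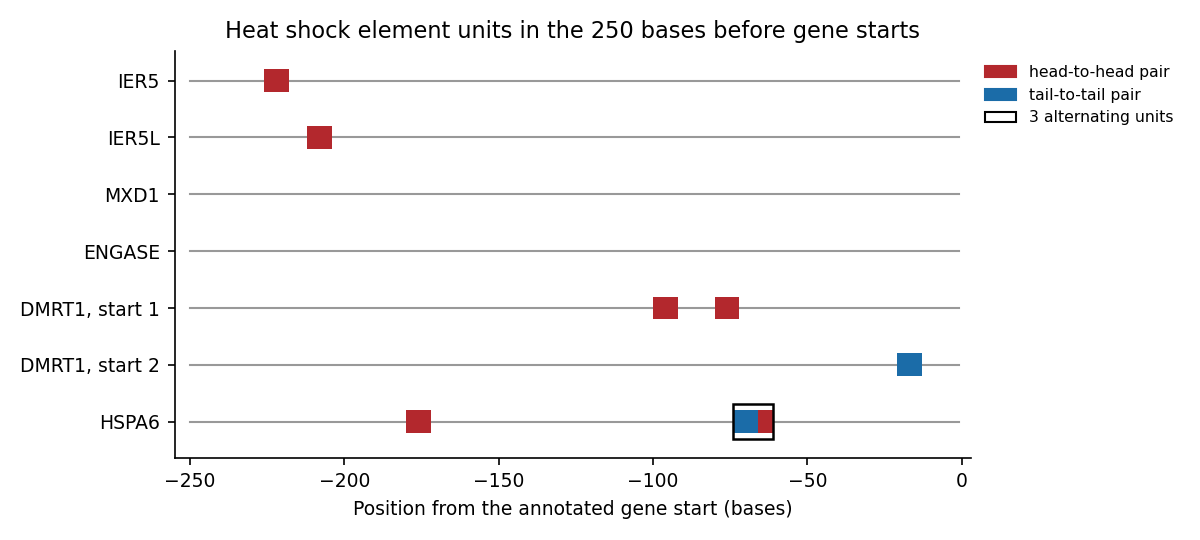
Matches to paired heat shock element units in the 250 bases before the annotated starts of the 5 genes (2 starts for DMRT1) and of HSPA6, with the position from the gene start in bases on the horizontal axis. Filled boxes are pairs of units and the open box is a run of 3 alternating units, exact matches only. The run is seen in HSPA6 at -74 to -62 and in none of the 5 genes.

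The targeted gene and a chaperone were looked at first. For HSF1 the shNTC arrays gave 38.2 and 47.3 without Dox and 36.6 and 47.9 with it, and the shHSF1 arrays 99.0 and 42.5 without Dox and 5.5 and 7.3 with it. HSF1 fell by 1.87 on the log2 scale with the knockdown (difference of log2(signal + 16), SE 0.29, limma, adjusted p = 0.00754), and both knockdown arrays lay below the other 6. HSPA6 signals were between 5.1 and 15.5 in the shNTC arrays, 1680.8 and 1328.5 with NVP-HSP990, and 18.3 and 12.4 with the knockdown. Of the HSF1 target chaperones, 15 of 17 were tested, of which 8 were higher with the inhibitor and 9 were lower with the knockdown (limma, adjusted p under 0.05), where 0.197% and 1.85% of all genes tested were. The median log2 differences of the list were 1.11 and -1.26 beside 0.01 and 0.00 over all genes tested. The list was drawn up with earlier results of these data known and is no independent evidence of its direction.

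The label of the cells was compared with marker genes. Of 8 melanocyte markers, 7 were on the array and 3 passed the filter, namely MITF (1185.1 to 1965.5 over the 8 arrays), SOX10 (271.5 to 1069.4) and S100B (69.4 to 262.6), whereas the pigmentation genes PMEL, MLANA, TYR and TYRP1 stayed at or under 11.7. The summed signal of the melanocyte markers was 2636.8 to 2702.6 with NVP-HSP990 and 1963.6 to 2429.8 with the knockdown. In shNTC cells it was 2315.0 to 2766.8 without Dox and 2070.2 to 2798.8 with it, which overlaps both. S100B had 262.6 and 181.9 with NVP-HSP990 against 139.2 and 69.4 with the knockdown (a log2 difference of -1.03 ± 0.30, limma, adjusted p = 0.105). With the knockdown the median difference of the 3 tested markers was -0.49, and none was called. The summed signal of hepatocyte markers was 92.6 to 129.1 with NVP-HSP990 and 40.3 to 55.9 with the knockdown, which came mostly from SERPINA1, while ALB stayed at or under 4.3. In shNTC cells the hepatocyte sum was 64.2 to 101.1 without Dox and 87.1 to 98.6 with it. The summed signal of fibroblast markers was 631.1 to 639.8 with NVP-HSP990 and 890.7 to 928.3 with the knockdown, mostly from LUM, which rose by 0.71 ± 0.15 (limma, adjusted p = 0.0385). In shNTC cells the fibroblast sum was 598.6 to 619.9 without Dox and 495.9 to 600.9 with it. The other tested fibroblast markers were not called and ran both ways, from -0.38 ± 0.20 for COL1A1 and -0.15 ± 0.32 for DCN to 0.31 ± 0.31 for PDGFRB, with a median of 0.08 over the 4 tested. Colon epithelial markers summed to between 3.4 and 14.8. The part of these markers in the differences of the 5 genes was not tested. The ratio of the 3-prime to the 5-prime ACTB probe set, a sign of RNA quality, differed widely between arrays. It was 6.655 and 13.72 in the shNTC arrays without Dox, and 4.73 and 46.8 in those with Dox. In the NVP-HSP990 arrays it was 18.9 and 8.27, and in the knockdown arrays 10.3 and 5.63. The first NVP-HSP990 array thus lay above both shNTC arrays without Dox. Comparisons with the shNTC Dox arrays include the array at 46.8. The part of RNA quality in the differences was not tested.

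IER5, the PP2A partner, gave signals of 1404.6 and 1205.8 with DMSO, 1025.1 and 1367.2 with Dox, 2093.4 and 2223.9 with NVP-HSP990, and 1225.6 and 1392.5 with NVP-HSP990 and the knockdown. The NVP-HSP990 arrays stood above the other 6, and both knockdown arrays lay within the range of the 4 shNTC arrays. The mean signal with NVP-HSP990 was 1.65-fold that with DMSO and also 1.65-fold that with the knockdown. In bulk RNA, a change in the number of cells that express a gene and a change of its RNA per cell cannot be told apart.

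The paralog IER5L was read by 2 probe sets, which gave different sizes in the same directions. The brighter, 226552_at, gave 109.8 and 73.8 with DMSO, 99.7 and 93.8 with Dox, 315.4 and 248.4 with NVP-HSP990, and 65.9 and 61.2 with the knockdown. Its mean with NVP-HSP990 was 3.07-fold that with DMSO and 4.43-fold that with the knockdown, and both knockdown arrays were below all 4 shNTC arrays. The other, 226559_at, gave 41.4 and 33.3, then 42.0 and 31.4, then 82.1 and 83.8, then 32.3 and 22.5 in the same order of groups, which corresponded to ratios of 2.22 and 3.03. On this probe set one of the knockdown arrays lay inside the shNTC range and the other under it.

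MXD1, the MAX partner, was read by 3 probe sets, one of which, 206877_at, stayed between 1.7 and 9.7, under the array medians, and entered only the alternative that averages all probe sets of a gene. The brightest, 226275_at, gave 390.3 and 365.7 with DMSO, 361.5 and 347.9 with Dox, 962.1 and 925.8 with NVP-HSP990, and 414.9 and 606.7 with the knockdown. On this probe set the knockdown arrays were below the NVP-HSP990 arrays and above every shNTC array. The signals of 228846_at were 254.4 and 195.7, 271.5 and 193.9, 571.5 and 463.5, and 379.4 and 377.9 in the same order, and the groups were arranged in the same way. The ratio of mean signals with NVP-HSP990 to those with the knockdown was 1.85 on the first probe set and 1.37 on the second. The log2 difference of MXD1 with the knockdown was -1.18 between the first arrays and -0.60 between the repeats, the widest gap among the 5 genes in that comparison.

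ENGASE, the free N-glycan trimming enzyme, gave 100.2 and 92.5 with DMSO, 78.8 and 105.0 with Dox, 254.1 and 258.9 with NVP-HSP990, and 86.1 and 96.9 with the knockdown on probe set 65635_at. The second probe set, 220349_s_at, gave 62.9 and 57.2, 43.2 and 65.7, 232.1 and 209.1, and 63.0 and 43.8. On both, the knockdown arrays lay within the range of the 4 shNTC arrays. The ratio of NVP-HSP990 to DMSO was 2.66 and 3.68 on the respective probe sets, and that of NVP-HSP990 to the knockdown 2.80 and 4.13.

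DMRT1, the testis transcription factor, was dim, since the medians of the arrays were 10.6 to 14.2. Its only probe set, 220493_at, gave 18.6 and 19.0 with DMSO, 11.6 and 9.1 with Dox, 66.5 and 53.7 with NVP-HSP990, and 22.0 and 17.4 with the knockdown. With NVP-HSP990 the mean was 3.20-fold that with DMSO and 3.05-fold that with the knockdown. One knockdown array was above all shNTC arrays and the other was within their range.

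**Figure D2:**
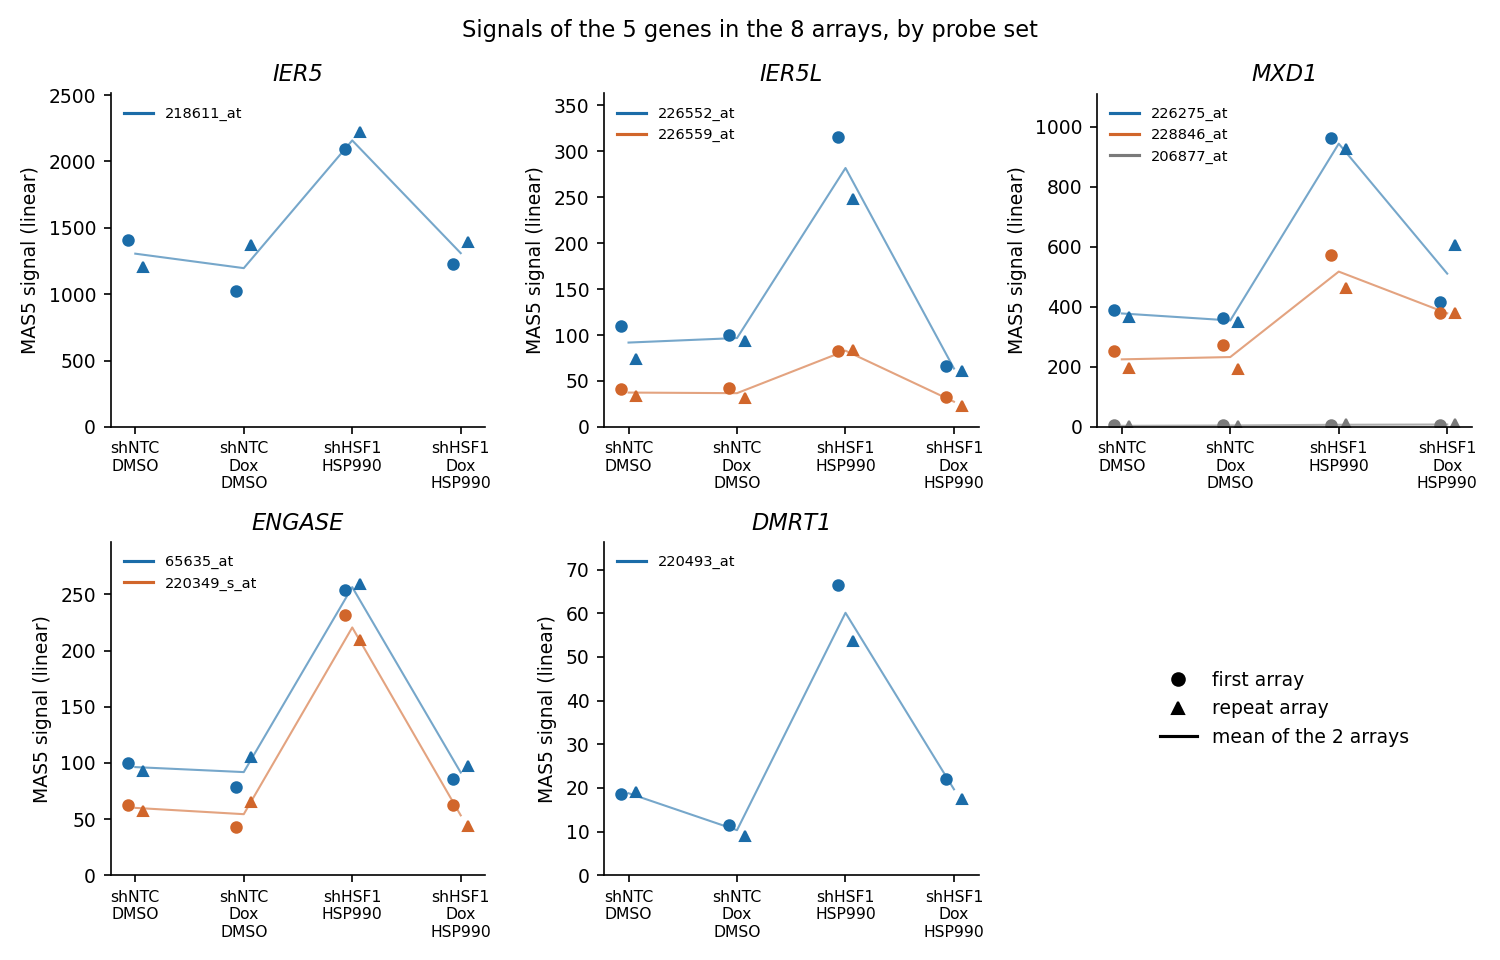
MAS5 signals (linear vertical axes from 0) of the 5 genes in the 4 groups, one colour per probe set, with circles for the first array, triangles for the repeat and lines through the mean of the 2 arrays. In every probe set but the dim 206877_at of MXD1, both shHSF1 HSP990 arrays stand above the other 6, and the MXD1 knockdown arrays stay above those of shNTC cells.

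On the log2(signal + 16) scale and the brightest probe set of each gene, the differences between NVP-HSP990 and DMSO were 1.48 ± 0.22 for IER5L, 1.29 ± 0.18 for MXD1, 1.28 ± 0.20 for ENGASE, 1.12 ± 0.18 for DMRT1 and 0.72 ± 0.18 for IER5 (SE from limma over 8 arrays). The offset of 16 makes a change look smaller in a dim gene, so that DMRT1, with a ratio of 3.20, has a log2 difference below that of MXD1, with 2.50. The differences between the knockdown and NVP-HSP990 alone were -1.90 ± 0.22 for IER5L, -1.34 ± 0.20 for ENGASE, -1.09 ± 0.18 for DMRT1, -0.89 ± 0.18 for MXD1 and -0.72 ± 0.18 for IER5. In the limma fit, 4 of the 5 were called higher with NVP-HSP990, where 0.197% of all genes tested were, and 4 of the 5 were called lower with the knockdown, where 1.85% were. Both criteria were met by 16 genes (0.126%). Since these contrasts chose the genes, nothing is read from the counts. IER5 was the exception in both, with DMRT1 the smallest difference with NVP-HSP990 among those called. Leaving out either shNTC DMSO array or either NVP-HSP990 array left none called higher with NVP-HSP990, leaving out either shNTC Dox array left 2, and leaving out the first NVP-HSP990 array left 2 called lower with the knockdown.

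The third comparison set the knockdown arrays against the shNTC arrays with Dox, and asks where each gene stood when the inhibitor was present and HSF1 was reduced. It shares arrays with the contrasts that chose the genes and is given as a description. The differences in log2(signal + 16) were 0.48 ± 0.18 for MXD1, 0.44 ± 0.18 for DMRT1, 0.14 ± 0.18 for IER5, 0.00 ± 0.20 for ENGASE and -0.50 ± 0.22 for IER5L. None of the 5 was called, where 5.83% of all genes were, and 3 had an unadjusted p under 0.05 (1 with the Student t-test). Over all genes, 2472 had an unadjusted p under 0.05 by limma. Since the knockdown arrays entered the choice of the genes, nothing is read from these counts. In linear signals the ratios were 1.44 and 1.63 for the MXD1 probe sets, 1.09 for IER5, 0.996 and 0.980 for those of ENGASE, and 0.657 and 0.747 for those of IER5L. No ratio is given for DMRT1, whose shNTC Dox signals of 11.6 and 9.1 were at or under the medians of their arrays, 11.6 and 10.7. Leaving out 1 array moved the difference of MXD1 to 0.22 (without the knockdown repeat) or 0.75 (without the first knockdown array), and that of IER5 to -0.06 or 0.35 (without the first or the repeat shNTC Dox array).

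Doxycycline in shNTC cells did not enter the choice of the genes, although its DMSO arrays without Dox are the controls of the first contrast. With it, IER5 differed by -0.13 ± 0.18, IER5L by 0.08 ± 0.22, MXD1 by -0.09 ± 0.18, ENGASE by -0.07 ± 0.20 and DMRT1 by -0.40 ± 0.18 (limma, adjusted p = 1.0 for each). None of the 5 was called, by limma or by the Student t-test, and of all genes tested 0.0% were. At an unadjusted p under 0.05 there were 0 of the 5 by limma and 1 by the t-test, and 306 of all genes by limma. Signals with Dox were 11.6 and 9.1 against 18.6 and 19.0 without it for DMRT1. On 226275_at of MXD1 they were 361.5 and 347.9 against 390.3 and 365.7. On 228846_at of MXD1 the arrays overlapped, at 271.5 and 193.9 against 254.4 and 195.7. With 2 arrays against 2, separate values often arise without any change. Their share over all genes was not counted, and nothing is read from them.

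The response to Dox of the shHSF1 line (under inhibitor) minus that of the shNTC line (under DMSO) contains the knockdown contrast and is likewise a description for the 5 genes. It was -1.98 ± 0.31 for IER5L, -1.28 ± 0.28 for ENGASE, -0.80 ± 0.26 for MXD1, -0.69 ± 0.26 for DMRT1 and -0.58 ± 0.25 for IER5. IER5L was the one of the 5 that was called, where 0.789% of all genes were. Since the knockdown contrast chose the genes, nothing is read from that call.

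**Figure D3:**
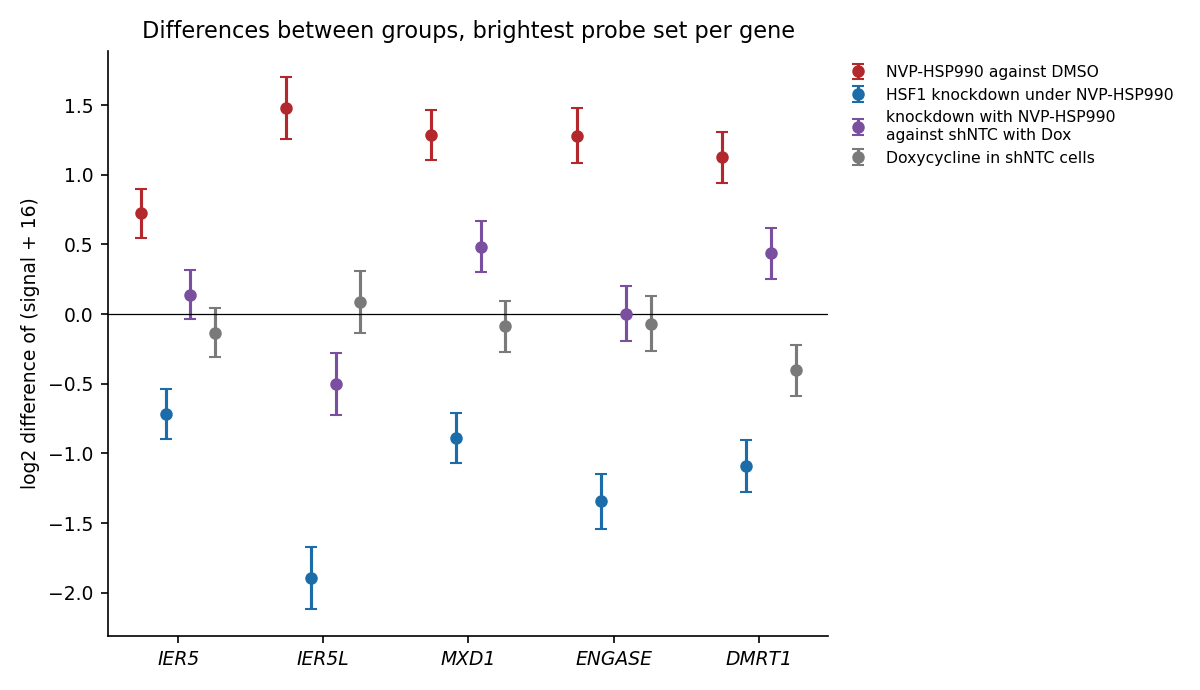
Log2 differences of (signal + 16) of the 5 genes in 4 comparisons, as points with bars of 1 SE from the limma fit over 8 arrays. NVP-HSP990 points lie between 0.72 and 1.48 and knockdown points between -1.90 and -0.72, while the remaining points lie between -0.50 and 0.48.

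The pathways around the 5 genes were then described from lists of other genes. Of 79 such genes on the array, 64 passed the filter, and 1 was called with NVP-HSP990 and 1 with the knockdown. Of the relatives of IER5 and the PP2A subunits and substrates it acts with, 13 of 13 were tested. IER3, an immediate early gene that modulates survival signals, was the one that was called with NVP-HSP990, where 0.221% of all genes were called in either direction. Its signals were 2847.2 and 2937.9 with DMSO, 2593.9 and 3270.3 with Dox, 1496.5 and 1408.0 with NVP-HSP990, and 1766.9 and 1824.8 with the knockdown. It fell by 0.99 on the log2 scale (SE 0.16, limma, adjusted p = 0.0492), and both inhibitor groups lay below all shNTC arrays. The call was close to the threshold and was lost when either shNTC DMSO array, or any one of the 4 arrays of shHSF1 cells, was left out (0 of 64 called in each case). IER2, the other immediate early gene of the list, had a difference of -0.87 ± 0.18 with NVP-HSP990 (adjusted p = 0.171) and of 0.67 ± 0.18 with the knockdown (limma, adjusted p = 0.0887), opposite in sign to those of IER5. The 11 remaining genes of the list, PP2A subunits, S6 kinases and CDC25B, were not called in either comparison, and the medians of the list were -0.07 and 0.21.

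In the network of MYC, MAX and the MXD proteins, 12 of 16 genes were tested. MYC was the one called with the knockdown, where 2.84% of all genes were called in either direction. Its signals were 48.4 and 41.9 with DMSO, 49.6 and 42.7 with Dox, 82.2 and 72.6 with NVP-HSP990, and 145.1 and 156.2 with the knockdown. The order of the groups differed from that of MXD1, since MYC was highest in the knockdown arrays. It rose by 0.84 ± 0.19 with the knockdown (limma, adjusted p = 0.049) and by 1.42 ± 0.19 in the knockdown arrays against the shNTC arrays with Dox (limma, adjusted p = 0.00248), while the difference with NVP-HSP990 was 0.61 ± 0.19 (adjusted p = 0.591). Its call with the knockdown was lost whichever of the 8 arrays was left out. MAX, the other MXD proteins, MLXIP and the SIN3 and HDAC corepressors that were tested were not called in either comparison, and the medians of the network were -0.04 and 0.01.

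Of MYC target genes, which MXD1 can repress through the same E-boxes, 19 of 23 were tested and none was called in either comparison by limma or the t-test. At an unadjusted p under 0.05 limma gave 1 with NVP-HSP990 and 2 with the knockdown, beside 628 and 1943 of all 12672 genes tested. Nothing is read from these counts. The largest differences were those of GRWD1, a ribosome assembly factor, at -0.29 ± 0.21 and 0.49 ± 0.21 (adjusted p = 1.0 and 0.301), and of MRTO4, which acts in ribosome assembly as well, at -0.34 ± 0.15 and 0.38 ± 0.15 (limma, adjusted p = 0.998 and 0.262). The medians were -0.05 and 0.09.

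For ENGASE, the list held the enzymes, lectins and ubiquitin ligases that dispose of free N-glycans and misfolded glycoproteins. Of 20 genes, 16 were tested and none was called by limma or the t-test, with 0 and 1 at an unadjusted p under 0.05 by limma. Of all 12672 genes tested, 628 and 1943 had such a p in the 2 comparisons. SEL1L, the adaptor of the HRD1 ubiquitin ligase, had -0.44 ± 0.17 with the knockdown (adjusted p = 0.226), and EDEM1, a mannosidase-like protein of ER-associated degradation, -0.43 ± 0.22 (limma, adjusted p = 0.401). With NVP-HSP990 all members of the list lay between -0.27 and 0.18.

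Of DMRT and gonad genes, 14 of 16 were on the array and 4 were tested, DMRT2, SOX9, WT1 and GATA4, none of them called by limma or the t-test (1 at an unadjusted p under 0.05 by limma in each comparison). Such a p was reached by 628 and 1943 of all 12672 genes tested. The dim members included DMRT3, DMRTA1, DMRTA2, DMRTB1 and DMRTC2, at or under 14.4 on every array. DMRT2 had signals of 76.6 to 135.7 and differences of -0.29 ± 0.22 and 0.45 ± 0.22 (adjusted p = 1.0 and 0.378). SOX9, a testis and neural crest factor, had -1.49 ± 0.43 and 1.06 ± 0.43 (limma, adjusted p = 0.512 and 0.271), with the 2 shNTC Dox arrays far apart at 571.2 and 164.5. It was called with the knockdown when either of these 2 arrays was left out, and with NVP-HSP990 when only the 4 arrays of that comparison were fitted.

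**Figure D4:**
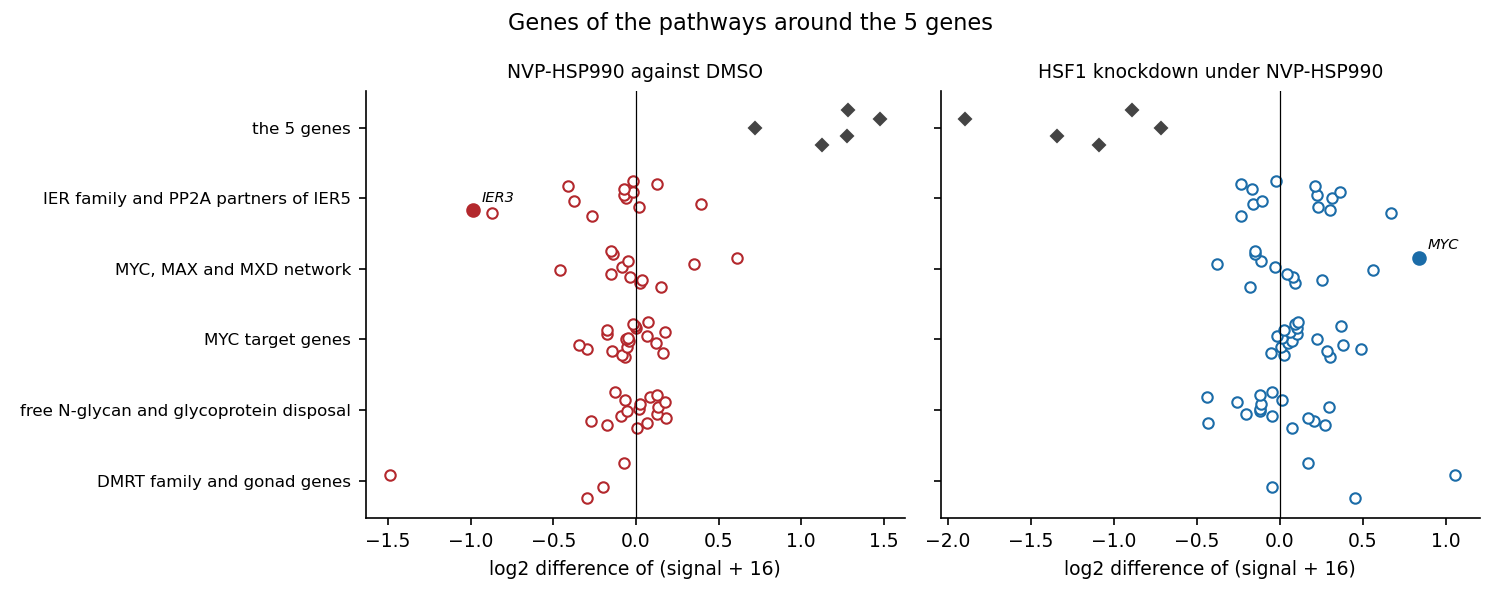
Log2 differences of (signal + 16) for the 5 genes (diamonds, chosen on these contrasts and not tested) and for each tested gene of the 5 pathway lists, with NVP-HSP990 at left and the knockdown at right. Filled circles are genes called by limma, IER3 at -0.99 and MYC at 0.84, and open circles are genes not called.

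The neighbours of the 5 genes on the chromosome were examined as well, 2 protein-coding genes on each side in the RefSeq order. Of 20 positions, 15 had a gene on the array and 13 were tested. None was called with NVP-HSP990 or with the knockdown by limma or the t-test, and 1 and 3 had an unadjusted p under 0.05 by limma. Of all 12672 genes tested, limma called 0.221% and 2.84%, and 628 and 1943 had such an unadjusted p. With 13 genes, nothing is read from the absence of calls. The medians were 0.12 and 0.00. Next to IER5, MR1 had 0.43 ± 0.24 and -0.46 ± 0.24, and CACNA1E stayed at or under 5.6. Next to IER5L, PTPA, itself an activator of PP2A, had 0.22 ± 0.19 and -0.40 ± 0.19. Beside MXD1, SNRNP27 had 0.28 ± 0.20 and 0.31 ± 0.20, and ASPRV1 0.20 ± 0.20 and -0.27 ± 0.20. DMRT3, beside DMRT1, stayed at or under 4.7.

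The neighbours of ENGASE differed from each other. C1QTNF1 had 0.01 ± 0.27 and -0.60 ± 0.27. RBFOX3, a neuronal splicing factor gene, gave 3.6 and 2.7 with DMSO, 11.1 and 3.5 with Dox, 21.4 and 44.9 with NVP-HSP990, and 9.2 and 21.2 with the knockdown. Its signal was under the array median on all 4 shNTC arrays, and it passed the filter only through the inhibitor arrays, where it was high, and not under the stricter filter of 4 arrays. The lower NVP-HSP990 array was near the higher knockdown array. RBFOX3 differed by 1.32 ± 0.27 with NVP-HSP990 and by -0.64 ± 0.27 with the knockdown, and was called in neither. No p is given, because the filter let it in through arrays where it was high. For the same reason nothing is read from its call with NVP-HSP990 when the arrays were centred on their medians.

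**Figure D5:**
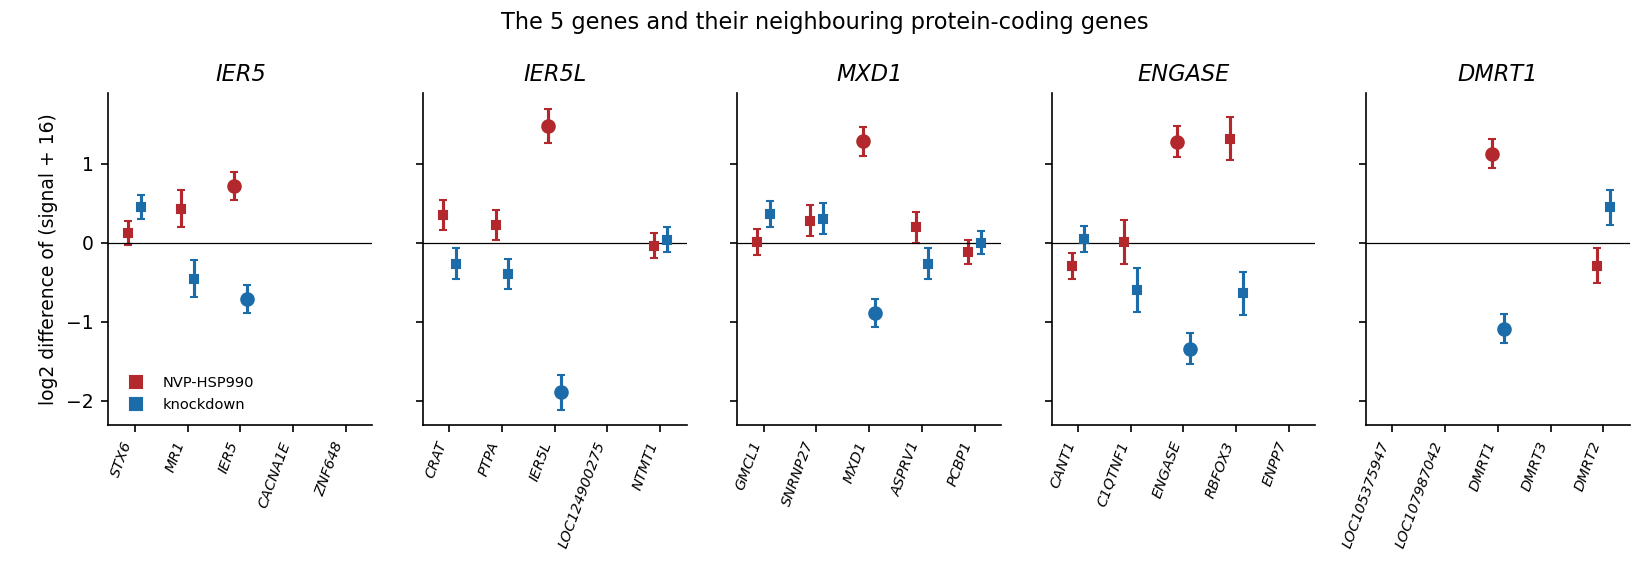
Log2 differences of (signal + 16) with bars of 1 SE for each of the 5 genes (circles) and the 2 annotated protein-coding genes on either side (squares), in order along the chromosome, with NVP-HSP990 and the knockdown side by side. Gaps are genes that were not on the array or too dim to be tested. Only RBFOX3 among the neighbours lies above 1 with NVP-HSP990, and it passed the filter only through the inhibitor arrays, where it was high.

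The genes whose pattern was most like that of each of the 5 were found by Pearson's correlation of log2(signal + 16) over the 8 arrays among all genes tested. The arrays form 4 groups, so that such values mostly follow the differences between groups. The 5 genes were chosen on such differences, so their likeness to genes of that pattern follows from the choice. The values are a description without a test. ENGASE was most like HSPA1L (0.990), DNAJB1 (0.984) and HSPA6 (0.984), a pair of HSP70 genes and an HSP40 gene, although the difference of HSPA6 with NVP-HSP990 was 5.78 and that of ENGASE 1.28. MXD1 was most like DNAJB4 (0.981), an HSP40 gene, the pseudogene NMRAL2P (0.968) and ZFAND2A (0.966), an arsenite-inducible partner of the proteasome. DMRT1 was most like USP11 (0.970), a deubiquitinase, ZFAND2A (0.965) and ERN1 (0.965), the IRE1 sensor of ER stress. IER5L was most like CYP39A1 (0.991), an oxysterol hydroxylase, ZC3HAV1 (0.988), an antiviral RNA-binding protein, and RAB6B (0.976), a Golgi GTPase. IER5 was most like DHRSX (0.991), PTP4A3 (0.976), a phosphatase, and ENGASE (0.970), of which DHRSX differed by only 0.26 with NVP-HSP990.

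Among the 5 genes themselves, chosen on the same differences, the correlation ran from 0.781 between IER5L and MXD1 to 0.970 between IER5 and ENGASE. The paralogs IER5 and IER5L had 0.851. IER5L and MXD1, the least alike, are also the 2 genes whose knockdown arrays lay on opposite sides of those of shNTC cells on their brightest probe sets.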

How the data were processed

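RNA of A375 cells was hybridised to 8 HG-U133 Plus2 arrays, and the titles place 2 of them in each of 4 groups. The description fields, which name cells and drugs of other work, were left aside. The deposited values are intensities that the authors computed with MAS5 (version not given in the sources used here) from amplified, biotin-labelled cDNA. They are linear signals scaled per array to a mean of 150 with 2 percent trimmed at each end, and no further normalization was made. The small number of arrays limits the precision.

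Of 54675 probe sets, 41091 carry a single gene symbol in the platform annotation, 1801 several and 11721 none, and 62 are controls; only the first kind was used. Each gene was represented by its brightest probe set (mean log2 signal over 8 arrays). Genes at or above the array median in at least 2 of 8 arrays were tested, on log2(signal + 16), with limma 3.58.1 in R 4.3.3 (means model of 4 groups, variances with a trend on intensity, 4 residual and 6.36 prior degrees of freedom, two-sided), and called at a Benjamini-Hochberg adjusted p under 0.05 over all genes tested. The steps were tested on simulated data. The paper's statistics section names the Student t-test, though none for the arrays, and it was run as an alternative. The 5 genes and all gene lists were chosen with earlier results of these data known. The named genes are the 5 with every probe set, HSF1 and HSPA6, in each pathway list the called genes or else the 2 with the largest differences, the nearest neighbours, the 3 genes most alike to each of the 5, and the markers. IER2 and WT1, GATA4 and the other DMRT genes were named after their values were seen. Gene order and promoter windows came from RefSeq (GRCh38.p14), of which only the 250 bases before each start were searched.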

Additional observations from a re-analysis of the deposited data

Results flagged for a closer look

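For HSPA6, HSPA1L and IER5L, the response to Doxycycline differed between the shHSF1 line (under inhibitor) and the shNTC line (under DMSO). For HSPA6 the difference between the responses was -5.44 ± 0.34 on the log2(signal + 16) scale (limma interaction, adjusted p = 0.000172), a size that depends on the 16 added because its signals without NVP-HSP990 were near the array medians. For HSPA1L it was -1.89 ± 0.28. HSPA1L was named because its pattern was most like that of ENGASE, which was chosen on the knockdown contrast, so no p is given. HSPA6 and HSPA1L belong to the HSF1 target chaperones, of which 8 of the 15 tested were called in this interaction, all 8 below 0. Of all genes tested, 0.789% were called. The chaperone list was drawn up with earlier results of these data known, and nothing is read from its count. For IER5L it was -1.98 ± 0.31, given without a p because it contains the knockdown contrast on which IER5L was chosen. For the same reason nothing is read from IER5L being flagged. Line and inhibitor change together in this comparison and cannot be told apart. Over all genes the interaction gave 100 calls, 59 with no filter and 279 with the array number as a term. Whether the flagged genes stay called under the alternatives was not examined.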

How the results depend on the processing

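The differences of the 5 genes with NVP-HSP990 and with the knockdown kept their sign under every alternative run. They ranged from 0.61 to 0.83 and -0.81 to -0.63 for IER5, and 0.90 to 1.72 and -2.12 to -1.20 for IER5L. For MXD1 they ranged from 0.89 to 1.33 and -1.16 to -0.42. The 0.89 and -0.42 are the mean of all probe sets, which takes in the dim 206877_at. The brighter 228846_at alone gave 1.15 ± 0.21 and -0.43 ± 0.21, so its knockdown difference was as small as that mean. The ranges were 1.00 to 1.64 and -1.78 to -1.04 for ENGASE, and 0.58 to 1.62 and -1.56 to -0.57 for DMRT1. The calls did not hold as well. With NVP-HSP990, 4 of the 5 were called, 0 with no filter, 0 with the Student t-test, and 0 to 3 with 1 array left out. With the knockdown, 4 were called, 2 with only the arrays of the comparison, 0 with the t-test, and 2 to 5 with 1 array left out. With Doxycycline in shNTC cells, and with the knockdown arrays against shNTC cells with Dox, none was called under any alternative. The interaction, which also uses the shNTC Dox arrays, was not followed for the 5 genes under the alternatives. Against shNTC cells with Dox, the knockdown differences ranged from -0.06 to 0.35 for IER5, -0.60 to -0.28 for IER5L, 0.22 to 0.75 for MXD1, -0.17 to 0.18 for ENGASE and 0.17 to 0.87 for DMRT1, so that the sign turned for IER5 and ENGASE. With Doxycycline the sign turned for IER5 without the first shNTC Dox array (0.07, and from -0.34 with other arrays left out), for IER5L without the second shNTC DMSO array (-0.16, and up to 0.33) and on 226559_at (-0.02), for MXD1 on the mean of its probe sets (0.01) and on 228846_at (0.04), and for ENGASE without the first shNTC Dox array (0.11, and from -0.24).

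Of the pathway genes, 1 was called with NVP-HSP990 (IER3) and 1 with the knockdown (MYC). Adding 1 before the log, no filter, the stricter filter, median centring and the t-test each left 0 in both comparisons, the mean of all probe sets and variances with no trend left 0 with NVP-HSP990, and only the arrays of the comparison gave 2 with NVP-HSP990 and 0 with the knockdown. With 1 array left out there were 0 to 1 in both, and with the knockdown the 1 was SOX9 and not MYC. SOX9 was also the second gene with only the arrays of the comparison for NVP-HSP990. Of the neighbouring genes, 0 were called with NVP-HSP990 and 1 under median centring. The 1 was RBFOX3, which passed the filter only through the inhibitor arrays, where it was high, and nothing is read from its call. With the replicate block, the array number as a term, 4 and 5 of the 5 genes and 2 and 2 pathway genes were called in the 2 comparisons, and the calls over all genes went from 28 to 44 and from 360 to 752. Same-numbered arrays deviated together with a correlation of 0.685 between the shHSF1 groups and 0.464 between the shNTC groups. Between the lines the correlations were 0.0156 to 0.276. The main fit has no term for this shared deviation. The labels tie no number to a shared culture or day, so the numbers are not read as pairs. Over all genes, the knockdown gave 95 calls with only its own 4 arrays and 221 with no filter, and NVP-HSP990 gave 16 with no filter, and the t-test gave 0 in each. The cause of these changes was not tested, except that fewer arrays or more genes tested follow from the alternatives themselves. Having 2 arrays per group limits every call.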
